A study of Mus musculus with 6 samples.

Results

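Tfrc, Slc7a11, Acsl4 and Far1 are 4 genes of iron uptake, cystine uptake and membrane lipid synthesis that are named in work on ferroptosis. They were taken by symbol from the authors' deposited table of 149 genes whose level differed between mouse hearts after ischaemia and reperfusion alone (IR) and hearts of mice that had also received trimethylamine N-oxide (TMAO+IR). All 4 were found. The table lists 1.17% of the about 12721 genes that its FDR values imply were tested, so each of the 4 was chosen on the difference between these same groups. Their fold changes are therefore given as a description, and no test of that difference is made here.

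Both groups were wild-type male C57BL/6 mice, and no age is stated for them. In each mouse the left anterior descending artery of the heart was closed for 45 min and then open for 24 h, and RNA was taken from the reperfused region of the heart. In the TMAO+IR group the drinking water held 0.12% TMAO, an oxidation product of a gut bacterial metabolite, for 4 weeks beforehand and during the procedure, and in the IR group it did not. Each group had 3 libraries of poly(A)-selected RNA, and hearts without ischaemia were not analysed here. Whole tissue was sequenced, so more cells of a type and more RNA per cell cannot be told apart in any value below.

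Ferroptosis is a form of cell death in which iron drives the peroxidation of polyunsaturated fatty acids in membrane phospholipids. Cells supply the iron through the transferrin receptor (Tfrc), and they counter the peroxides with glutathione, whose cysteine comes in part from cystine carried in by the exchanger xCT (Slc7a11). The oxidisable lipids depend on acyl-CoA synthetases such as ACSL4, which activates arachidonic and adrenic acid, and on peroxisomal ether lipid synthesis, for which FAR1 makes the fatty alcohols. In reperfused heart muscle, iron overload and lipid peroxidation are known parts of tissue injury. Tfrc, Acsl4 and Far1 are thus placed on the promoting side of ferroptosis and Slc7a11 on the restraining side. In the pathway column of the authors' deposited table, Tfrc, Slc7a11, Acsl4 and Cybb are the 4 rows with the KEGG term ferroptosis, while Far1 carries only the term peroxisome, which it shares with Acsl4.

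Of the 4 genes, 2 have short regulatory sequences that can be shown beside their values, because each is bound by a known regulator of that gene. The Tfrc transcript carries iron-responsive elements, stem-loops that the iron regulatory proteins bind when iron is scarce, which protects the mRNA from decay. The longest Tfrc transcript of GENCODE M21 was searched after its stop codon for a C, 5 bases, the loop CAGTG plus a base other than G, and 5 bases that pair with the first 5. Here and in the flanks, G with T counted as a pair. The transcript holds 4 such loops. They are printed 5′ to 3′ as DNA, with the bulged C and the 6-base loop in capitals, at chr16:32631219-32631247, chr16:32631598-32631626, chr16:32631663-32631691 and chr16:32631710-32631738 of GRCm38, plus strand.
Tfrc loop 1: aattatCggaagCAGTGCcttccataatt
Tfrc loop 2: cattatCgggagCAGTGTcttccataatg
Tfrc loop 3: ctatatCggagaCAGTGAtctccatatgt
Tfrc loop 4: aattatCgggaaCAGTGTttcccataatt
The same pattern occurred after the stop codon in 100 of 22527 coding genes searched (0.444%), and Tfrc was the only one with 4. Slc7a11, Acsl4 and Far1 had 0. Below the bulged C, 6 of 6 flanking bases could pair in loops 1, 2 and 4, and 5 of 6 in loop 3.

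Slc7a11 is known as a target of ATF4, the transcription factor made when eIF2α is phosphorylated, and the title of the series names that pathway. The 250 bases before the RefSeq start of Slc7a11 (GRCm38.p6, chr3:50443614-50443863, minus strand) are printed 5′ to 3′ with matches to the C/EBP-ATF element TGATGNAA and to the antioxidant response element core TGANNNNGC in capitals.
Slc7a11 upstream: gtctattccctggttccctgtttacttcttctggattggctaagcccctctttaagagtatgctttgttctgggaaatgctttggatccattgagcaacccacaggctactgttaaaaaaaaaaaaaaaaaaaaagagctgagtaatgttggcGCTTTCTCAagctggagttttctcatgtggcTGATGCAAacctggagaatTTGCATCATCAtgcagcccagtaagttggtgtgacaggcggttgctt
The C/EBP-ATF element matched in the forward orientation, with its first base 66 bases before the start, and in the reverse orientation at 47 bases. Among 32851 such windows of 27025 genes in the RefSeq promoter table, 3.45% held this element at least once and 0.0396%, or 13 windows, held it more than once. The antioxidant core matched at 97 and at 45 bases, and the second of these overlaps the reverse C/EBP-ATF element. That core is common, being present in 35.2% of windows, and it also matched in the Acsl4 window (at 219 and 55 bases) and the Far1 window (at 35 bases). No C/EBP-ATF element matched in the windows of Tfrc, Acsl4 or Far1. No AP-1 site (TGANTCA, in 6.75% of windows) or E-box (CACGTG, 6.02%) matched in the windows of any of the 4 genes, Slc7a11 included. The core GCGTG, shared by the xenobiotic and hypoxia response elements and present in 28.2% of windows, matched in the windows of Tfrc, Acsl4 and Far1 and not in that of Slc7a11. The hypoxia core ACGTG (16.6% of windows) matched in those of Tfrc and Far1, and the GC box GGGCGG (32.7%) in those of Tfrc, Acsl4 and Far1. Both strands were searched for each motif. All 4 genes were matched in the promoter table, Tfrc with 2 start sites. These matches describe letters only, and binding was not measured.

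All 4 genes had higher levels in TMAO+IR than in IR, by similar factors. On the log2 scale the count-based difference was 1.22 for Tfrc, 1.21 for Slc7a11, 1.16 for Acsl4 and 0.96 for Far1, where Far1 turned negative (-0.077) with DESeq2 size factors computed inside the list. Those factors assume that most listed genes are equal and lowered the other 3 genes as well, to 0.19 for Tfrc, 0.22 for Slc7a11 and 0.094 for Acsl4, with a median shift of -1.08 over the list. The median over the 122 listed genes that were higher was 1.21, so the 4 genes lie near or below the middle of that list. In all 4 genes every TMAO+IR library exceeded every IR library, both in scaled counts and in FPKM. The same held for 120 of the 149 listed genes in scaled counts (80.5%) and for 116 in FPKM (77.9%). Only the 122 genes that were higher could meet this rule, so the separation is what the choice of the list brings with it.

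Tfrc, on the plus strand of chromosome 16 (32608920 to 32632794 of GRCm38, ENSMUSG00000022797), was the most abundant of the 4. Its scaled count, in counts per 1000000 fragments of the library (CPM), was 25.5, 28.3 and 21.3 in IR replicates 1 to 3 and 52.4, 50.01 and 72.1 in TMAO+IR replicates 1 to 3. The lowest TMAO+IR library thus stood 1.77-fold above the highest IR library, the widest gap among the 4 genes, and TMAO+IR replicate 3 stood apart at the top. In FPKM, which also divides by length, the level was 5.50 ± 1.32 in IR and 13.3 ± 2.47 in TMAO+IR (SD, n = 3 each). The count-based fold was 2.32 (log2 1.22 ± 0.40 SE). The authors' deposited table gives an FDR of 1.31e-06, the 7th smallest p-value of the list. Without TMAO+IR replicate 3 the log2 difference was 1.03.

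Slc7a11, on the minus strand of chromosome 3 (49892526 to 50443614, ENSMUSG00000027737), was the least abundant. Its raw counts were 47, 76 and 27 in IR and 97, 107 and 122 in TMAO+IR, which makes it the gene most open to counting error here. Scaled counts were 2.27, 3.46 and 1.20 CPM in IR and 5.27, 4.97 and 5.86 CPM in TMAO+IR. The IR libraries were spread over a 2.87-fold range while the TMAO+IR libraries lay within 1.18-fold of each other. The FPKM level was 0.297 ± 0.145 in IR and 0.740 ± 0.177 in TMAO+IR (SD, n = 3 each), and the count-based fold was 2.32 (log2 1.21 ± 0.32 SE). Its FDR in the authors' deposited table was 0.0182. The log2 difference was 0.90 without IR replicate 3 and 1.63 without IR replicate 2, the libraries at either end of the IR range.

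Acsl4, on the minus strand of chromosome X (142317993 to 142390535, ENSMUSG00000031278), had scaled counts of 10.6, 10.1 and 5.62 CPM in IR and 20.4, 21.5 and 16.6 CPM in TMAO+IR. Replicate 3 was the lowest library in both groups. The FPKM level went from 1.75 ± 0.537 in IR to 3.89 ± 0.506 in TMAO+IR (SD, n = 3 each), and the count-based fold was 2.23 (log2 1.16 ± 0.36 SE). The authors' deposited table gives an FDR of 0.00102. Without IR replicate 3 the log2 difference was 0.92.

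Far1, on the plus strand of chromosome 7 (113513834 to 113571511, ENSMUSG00000030759), had scaled counts close to those of Acsl4 in every library. Its scaled counts were 11.4, 10.7 and 4.86 CPM in IR and 18.2, 18.2 and 15.9 CPM in TMAO+IR, again with replicate 3 lowest in each group. The gap between the groups was the narrowest of the 4 genes, the lowest TMAO+IR library being 1.40-fold above the highest IR library. The FPKM level was 2.50 ± 1.29 in IR and 5.18 ± 0.984 in TMAO+IR (SD, n = 3 each). Of the 4 genes Far1 lies nearest to the fold limit of the list: its log2 fold change was 1.05 in the authors' deposited table, where the smallest absolute value of any listed gene is 1.001. Its FDR there was 0.0176, close to the 0.0182 of Slc7a11, the largest of the 4, where the largest of any listed gene is 0.0487. The count-based value was 0.96 ± 0.36 SE (1.94-fold), below that limit, and it was 0.66 without IR replicate 3. Genes just outside the limits were not analysed here.

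**Figure D1:**
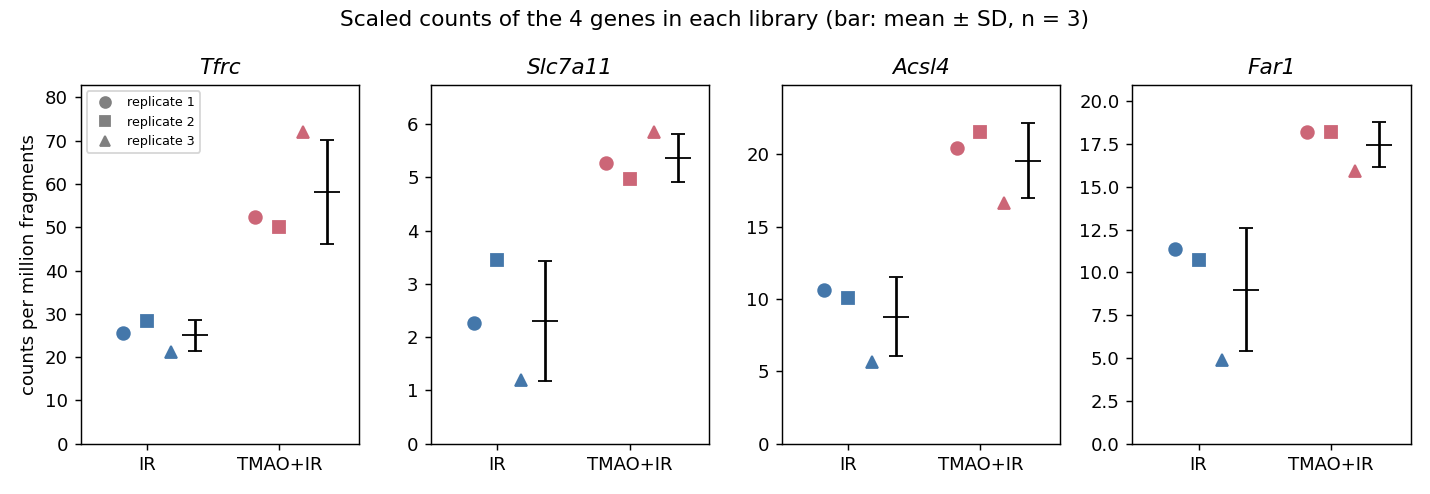
Scaled counts (vertical axis, CPM, starting at 0) of Tfrc, Slc7a11, Acsl4 and Far1 in the IR and TMAO+IR libraries, with a symbol for each replicate and the mean ± SD of 3 libraries as a black bar. The groups do not overlap in any panel, IR replicate 3 is the lowest library in each, and TMAO+IR replicate 3 is the highest for Tfrc and Slc7a11 and the lowest of its group for Acsl4 and Far1.

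The 4 genes did not rank the libraries alike. IR replicate 3 was the lowest of all 6 libraries for each of the 4, as it was the lowest IR library for 79 of the 122 higher genes (64.8%). TMAO+IR replicate 3 was the highest library of its group for Tfrc and Slc7a11, a place that it took in 11 of the 122 higher genes (9.02%), while for Acsl4 and Far1 it was the lowest of the TMAO+IR libraries. The replicate spread also differed by group. The coefficient of variation of the scaled counts in IR was 14.1% for Tfrc, 31.3% for Acsl4, 39.9% for Far1 and 48.8% for Slc7a11, where the median of the higher genes was 30.4%. In TMAO+IR it was 20.8% for Tfrc, 13.3% for Acsl4, 7.50% for Far1 and 8.42% for Slc7a11, against a median of 19.97%. In scaled counts, Slc7a11 and Far1 were thus among the more variable higher genes in IR (ranks 9 and 31 of 122). In TMAO+IR they were among the least variable (ranks 109 and 113). In FPKM, their coefficients of variation in TMAO+IR were larger, at 23.9% for Slc7a11 and 19.0% for Far1, so the narrow spread is one of scaled counts.

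In scaled counts, Acsl4 and Far1 kept a nearly constant proportion to each other. The ratio of their scaled counts was 0.936, 0.936 and 1.16 in IR and 1.12, 1.18 and 1.04 in TMAO+IR, a 1.26-fold range, although each gene alone ranged over 3.83-fold and 3.75-fold across the libraries. The ratio of Tfrc to Slc7a11 ranged over 2.16-fold (8.18 to 17.7), and that of Tfrc to Far1 over 2.01-fold. In none of the 6 pairs did the ratio separate the groups. The log2 shift of the ratio between groups was smallest for Tfrc to Acsl4, at 0.0046 ± 0.34 (SE from the libraries), and largest for Slc7a11 to Far1, at 0.29 ± 0.24. With 3 libraries a group these intervals are wide, so unequal changes of this size could not be seen.

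**Figure D2:**
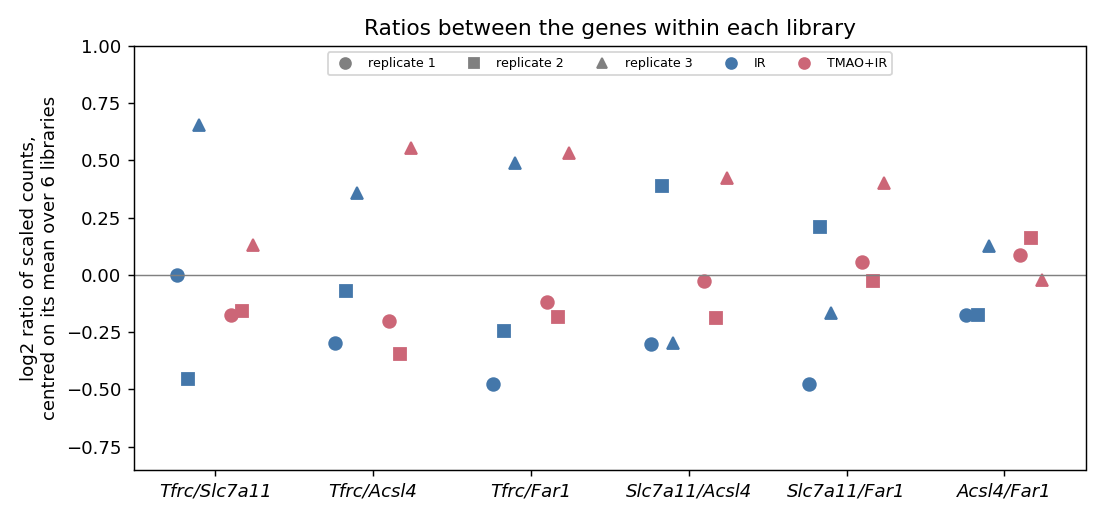
Log2 ratio of the scaled counts of each pair of the 4 genes in every library, centred on the mean of that ratio over the 6 libraries (vertical axis), with IR in blue, TMAO+IR in red and a symbol for each replicate. Acsl4/Far1 has the smallest spread, and the groups overlap in all 6 pairs.

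Likeness of pattern was measured as the root mean square difference, over the 6 libraries, between log2 scaled counts centred on the mean of each gene. For Acsl4 the nearest of the other 148 listed genes were Jmjd1c, a histone demethylase family gene (distance 0.11), and Skil, a repressor of SMAD signalling (0.12), with Far1 in 4th place (0.13), Slc7a11 in 45th (0.25) and Tfrc in 76th (0.33), beyond the median distance of 0.32. For Far1 they were Sntb2, a syntrophin of the dystrophin complex (0.098), and Nfat5, the osmotic stress factor (0.13), with Acsl4 in 3rd, Slc7a11 in 23rd and Tfrc in 67th place and a median of 0.40. The nearest to Slc7a11 were Cfb, complement factor B (0.13), and Cd274, which encodes PD-L1 (0.13), with Far1 in 11th, Acsl4 in 15th and Tfrc in 19th place. The nearest to Tfrc were Rab44, a large Rab GTPase (0.15), and Ikzf3, the lymphoid transcription factor Aiolos (0.16). Ikzf3 stood at 0.446 to 0.682 CPM in IR, near the 0.5 CPM added before the logarithm, which shrinks its differences. The other members followed in 16th (Slc7a11), 34th (Acsl4) and 49th (Far1) place. The 4 genes were thus not one another's nearest genes as a set, Acsl4 and Far1 being the closest pair among them. All listed genes were chosen for the same group difference, which brings their patterns together, so these distances describe the libraries and carry no test.

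Per length, the order of the levels was Tfrc, Far1, Acsl4 and Slc7a11 in 5 of the 6 libraries, with Acsl4 (1.13 FPKM) ahead of Far1 (1.05 FPKM) in IR replicate 3. Tfrc stood above and Slc7a11 below the others in every library. The FPKM ranges of Far1 and Acsl4 overlapped across libraries (1.05 to 3.52 against 1.13 to 2.11 in IR, and 4.13 to 6.08 against 3.32 to 4.28 in TMAO+IR). Within the same library the FPKM of Far1 was 1.38, 1.76 and 0.929 times that of Acsl4 in IR and 1.31, 1.42 and 1.24 times in TMAO+IR, so Far1 was ahead in all 3 TMAO+IR libraries and in 2 of 3 IR libraries. When counts were divided by the length of the longest annotated transcript instead, an alternative chosen after seeing the data, the TMAO+IR level of Far1 was 3.52 ± 0.264 and that of Acsl4 3.70 ± 0.490 FPKM (SD, n = 3 each), so the order of these genes depends on the length used.

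The length behind each FPKM can be read from the files, as the length that turns the count and the library size into the printed FPKM. The list's fold limit acts on FPKM, which holds this length, so it is not independent of the choice of the genes and is given as a description. For Acsl4 it hardly varied, from 4973 to 5042 bases in IR and 5004 to 5034 in TMAO+IR, inside the range of its 4 coding transcripts (4956 to 5280 bases). For Tfrc it was 4891, 4076 and 4890 bases in IR and 4204, 4442 and 4499 in TMAO+IR, so that IR replicates 1 and 3 sat at the longest transcript of 4890 bases within rounding. For Slc7a11 it was 5827, 9342 and 9262 bases in IR and 9094, 6998 and 6299 in TMAO+IR, against a longest transcript of 9223 bases. With FPKM printed to 2 decimals, rounding alone allows 8919 to 9633 bases in IR replicate 3.

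All 6 lengths of Far1 lay below its longest transcript of 4962 bases, at 3891, 3049 and 4629 bases in IR and 3418, 2994 and 3860 in TMAO+IR. Implied lengths of the groups overlapped for all 4 genes. The highest length was 1.01-fold the lowest for Acsl4, 1.20-fold for Tfrc, 1.55-fold for Far1 and 1.603-fold for Slc7a11, with a median of 1.06-fold over the 86 listed genes that had at least 1 FPKM in every library. The same count was thus worth a different FPKM in different libraries for Far1 and Slc7a11. In Slc7a11 the 76 counts of IR replicate 2 gave 0.37 FPKM and the 47 counts of IR replicate 1 gave 0.39 FPKM. How the authors assigned reads to transcripts of unequal length is not stated in any source used here. Annotated genes on the opposite strand overlap Slc7a11 (Gm37854, Gm37826 and Gm2345) and Far1 (Far1os), and 2 more lie inside Slc7a11 on its own strand. The protocol names no step that marks strand, so reads of overlapping genes may not be told apart, and their part in these values was not tested.

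**Figure D3:**
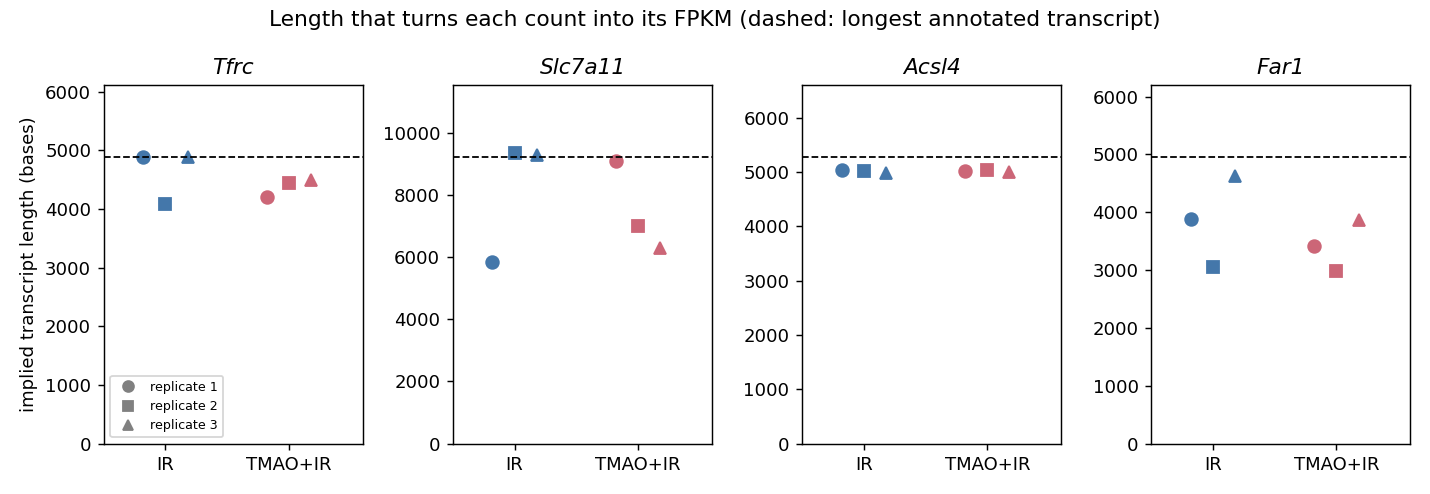
Length in bases (vertical axis, starting at 0) that turns the count of each gene and library into its deposited FPKM, in the IR and TMAO+IR libraries with a symbol for each replicate, beside the longest annotated transcript (dashed line). Acsl4 lies in a narrow band from 4973 to 5042 bases, while Far1 runs from 2994 to 4629 and Slc7a11 from 5827 to 9342, with overlapping groups.

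The other genes of these pathways were counted by their presence in the table, which lists 1.17% of the genes tested. The pathway lists were drawn up with the listed genes known and include the 4 chosen genes, so their counts support nothing by themselves. Of 36 genes that promote or mark ferroptosis, 5 were listed and all 5 were higher in TMAO+IR, where 81.9% of all listed genes were higher. Beside Tfrc, Acsl4 and Far1 they were Ptgs2, which encodes cyclooxygenase 2 and is used as a marker of ferroptosis, and Cybb, which encodes the core of the superoxide-forming NADPH oxidase of phagocytes. Ptgs2 measured 5.31, 6.82 and 2.15 FPKM in IR and 12.03, 12.6 and 8.78 FPKM in TMAO+IR. Cybb measured 2.28, 2.77 and 1.54 FPKM in IR and 5.06, 4.67 and 4.07 FPKM in TMAO+IR. Both shared with the 4 genes the low place of IR replicate 3. Of 27 genes that restrain ferroptosis, a list that includes Gpx4, Aifm2 and the ferritin genes, Slc7a11 was the only one listed.

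Without the 4 chosen genes, the pathway lists added few listed genes. Tfrc was the only listed gene of 39 in iron handling, Slc7a11 the only one of 27 in cystine and glutathione metabolism, and Far1 the only one of 20 in fatty alcohol and ether lipid synthesis. Acsl4 and Ptgs2 were the 2 listed of 27 genes for acyl-CoA synthetases and phospholipid remodelling. Slc3a2, the partner chain of xCT, Lpcat3, which puts ACSL4 products into phospholipids, and Agps and Gnpat, the enzymes of the peroxisomal ether lipid steps, were not in the table and were not analysed here. Among gene sets known for their regulators, Slc7a11 was the only listed gene of 21 NRF2 targets, and Slc7a11 and the stress cytokine gene Gdf15 were the 2 listed of 27 ATF4 targets. Gdf15 did not follow Slc7a11 across the libraries: it measured 1.23, 2.21 and 2.90 FPKM in IR and 5.69, 8.64 and 3.28 FPKM in TMAO+IR, highest in IR where Slc7a11 was lowest. Tfrc was the only listed gene of 17 hypoxia targets. A gene outside the table may have missed a limit of the list or may not have been tested, so its absence does not show equal levels.

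Listed markers of cells in which Tfrc or Cybb are known to be abundant differed between the groups. Every gene in the table does so by the choice of the list, which holds 1.17% of the genes tested. Markers outside the table were not analysed here. The part of these cells in the values above was not tested. Tfrc is high in dividing cells and red cell precursors. The 3 listed of 20 markers of dividing cells (Cdk1, Aurkb and Spc24) were all lower in TMAO+IR, as were 27 of all 149 listed genes. The 3 markers summed to 8.07 to 9.46 CPM in IR and 2.51 to 4.02 CPM in TMAO+IR. The only listed erythroid marker of 15, Slc4a1, was lower too, at 1.03 to 2.23 CPM against 0.384 to 0.707 CPM. Slc4a1 was near the floor, at 0.23 to 0.49 FPKM in IR and 0.08 to 0.16 FPKM in TMAO+IR, so its difference rests on few reads. Of the dividing cell markers, Aurkb (0.15 to 0.37 FPKM) and Cdk1 (0.32 to 0.68 FPKM) were also low in TMAO+IR. The 2 listed of 15 neutrophil markers (Mmp8 and Slfn4) summed to 11.8 to 21.1 CPM in IR and 33.4 to 39.6 CPM in TMAO+IR, and the 2 listed of 20 macrophage and monocyte markers (Ccr2 and Chil3) to 2.14 to 3.68 CPM and 5.09 to 11.2 CPM. Of the 15 cardiomyocyte markers only Myh7 was listed, at 35.7 to 73.6 CPM in IR and 165 to 339 CPM in TMAO+IR, so the labelled tissue could not be checked further against its markers. Ackr1 of 12 endothelial markers and Tnc of 12 fibroblast markers were the only listed ones of their lists, and both were higher in TMAO+IR (0.91 to 1.02 against 2.11 to 2.97 CPM, and 8.43 to 16.5 against 21.0 to 34.8 CPM). None of these listed markers was at 0 in any library.

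Library sizes recovered from counts and FPKM were 18389979 to 22423639 fragments. The listed genes took 0.33% to 0.505% of them in IR and 0.678% to 1.08% in TMAO+IR. The labels number the libraries without naming animals, so the spread between them may be technical.

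**Figure D4:**
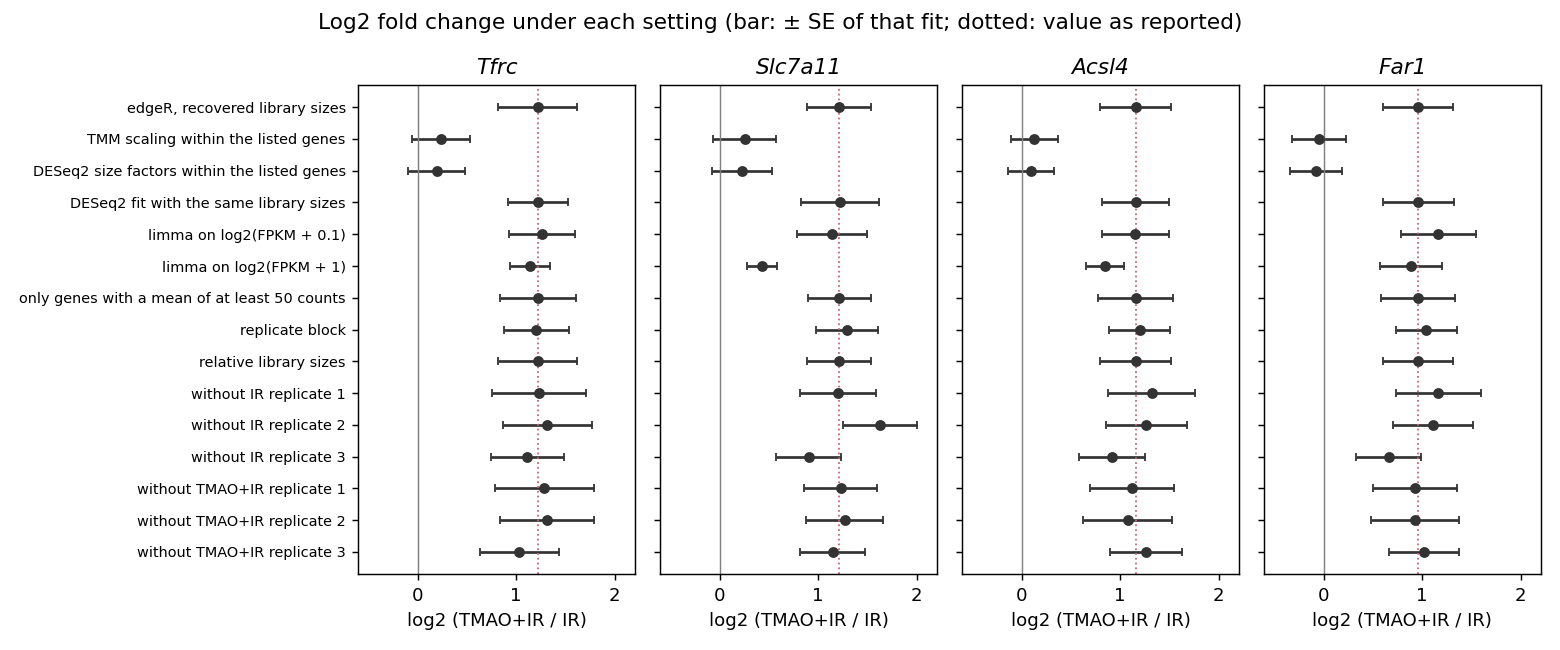
Log2 fold change of TMAO+IR over IR for each of the 4 genes (horizontal axis) under each setting (rows), with the SE of that fit as a bar, 0 as a grey line and the reported value as a dotted line. Values stay near the reported ones when a library is left out, are lowest for Acsl4, Far1 and Slc7a11 without IR replicate 3 among those settings, and drop to near 0 with scaling inside the list, where Far1 is slightly negative.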

How the data were processed

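The authors deposited 1 table of 149 genes with whole-number counts per gene and library, FPKM to 2 decimals, group means of FPKM, the log2 ratio of these means, and a p-value with its FDR; no source used here names the test behind the p-value. The submitters' processing notes name the build GRCm38 and, in no stated order, StringTie 1.3.1, HISAT2, Bowtie2 2.2.8, fastp 0.18.0, edgeR and DESeq2. Columns prefixed T-IR were read as TMAO+IR, the only group other than IR.

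Library sizes could not come from column sums of a selected list. They were the median over 12 genes with a single transcript (GENCODE M21, at least 1 FPKM in every library) of count divided by FPKM and length, and these genes differed by at most 0.274%. Fold changes and SE came from edgeR 4.0.16 (quasi-likelihood fit, R 4.3.3) over all 149 genes with these sizes and no filter. On simulated counts in which most genes were unchanged, unlike this list, the mean fold changes were checked and the SE were not. The edgeR moderation gave each gene a spread fitted to abundance over the listed genes, so the SE hardly reflect a gene's own replicates. They do not rank the precision of the 4 genes. Tfrc had the largest SE (0.40) with a replicate SD of 0.25 on the log2 scale, and Slc7a11 the smallest (0.32) with 0.55. Likeness used log2(CPM + 0.5). Named genes are the 4 members, listed genes of the pathway and marker lists, and the 2 nearest genes of each member; genes of those lists outside the table are named only as examples. The members, lists and motifs were chosen with earlier results of these data known. Sequences are from RefSeq (GRCm38.p6) and GENCODE M21.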

Additional observations from a re-analysis of the deposited data

How the results depend on the processing

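The log2 fold changes of the 4 genes stayed within 1 replicate SD of the reported values under several settings. These were a DESeq2 1.42.0 fit, limma 3.58.1 on log2(FPKM + 0.1), at least 50 mean counts, relative library sizes and every library left out. Most of these could hardly have given another outcome. The DESeq2 fit, the count filter and the relative sizes reuse the same counts and depths. With 3 libraries a group, leaving 1 out can hardly move a group mean by 1 replicate SD. Leaving out 1 library gave 1.03 to 1.31 for Tfrc and 0.90 to 1.63 for Slc7a11. For Acsl4 it gave 0.92 to 1.32 and for Far1 0.66 to 1.16. The groups stayed apart for all 4 genes, which was fixed in advance because they did not overlap with all 6 libraries. With a pseudocount of 1, larger than its own FPKM, Slc7a11 stood at 0.43. TMM scaling within the list, which lowers the median listed gene by 1.04 because it centres genes chosen for their change, gave 0.24 for Tfrc, 0.26 for Slc7a11, 0.13 for Acsl4 and -0.045 for Far1. DESeq2 size factors within the list (median shift -1.08) gave 0.19, 0.22, 0.094 and -0.077 in the same order. The replicate block gave 1.21 for Tfrc, 1.296 for Slc7a11, 1.20 for Acsl4 and 1.04 for Far1. Over 117 genes the deviations from the group means correlated at -0.33, 0.36 and -0.074 between libraries of the same number, and the labels name no pairs. Scaled counts did not overlap in 145 of 149 listed genes. On the length of the longest transcript, the TMAO+IR level of Far1 was 3.52 and not 5.18 FPKM; the other 7 group levels moved by less than 1 SD. Slc7a11, with 27 to 122 counts, is the gene that depth limits most.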
